A study of Homo sapiens with 12 samples.

Results

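Hyaluronan is a long, unsulphated sugar chain of the extracellular matrix, and 9 genes that make it, cut it or bind it were followed here, out of 16384 gene symbols in the count tables. They were taken by symbol: the synthases HAS2 and HAS3, the depolymerising proteins CEMIP (older symbol KIAA1199) and CEMIP2 (older symbol TMEM2), the hyaluronidases HYAL1, HYAL2 and HYAL3, and the receptors CD44 and HMMR (also called RHAMM). All 9 were listed, and 9 of 9 passed the filter on low counts. The genes were chosen with earlier results on these libraries known, among them the low CEMIP level under CAR. That CEMIP change, and those of CEMIP under JQ1 and the Combination against the same controls, are therefore given as descriptions with no test. The adjusted p-values of the other changes come from a fit over all 12645 genes tested and are not independent evidence about the choice.

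The chain is made at the inner face of the cell membrane from the nucleotide sugars UDP-glucuronic acid and UDP-N-acetylglucosamine, and is pushed out through the synthase as it grows. Long chains are cut at or near the cell surface, taken up, and broken down further in lysosomes. Cells bind the chain through CD44 and other receptors, and the cell line studied here is well known for a high CD44 level.

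The cells were MDA-MB-231, a line established from a triple-negative breast cancer and labelled wild type, and their poly(A) RNA was sequenced with a stranded kit. There were 12 libraries in 4 groups of 3. The controls received DMSO, the solvent. CAR stands for 10 µmol/L of cardamonin, a plant chalcone. JQ1 was used at 25 µmol/L and blocks the BET bromodomain proteins, which bind acetylated histones. Combination libraries come from cells given the 2 compounds together. No treatment time and no culture identity of the replicates was given, so the spread behind each p-value is that between these libraries and may be technical. All results come from 1 cell line, and in bulk RNA fewer cells of a kind and less RNA per cell cannot be told apart.

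The libraries held 17449715 to 19754456 counted reads, and levels below are in CPM, reads scaled to library size. On that scale 3 counts, taken as the floor, correspond to 0.147 to 0.177 CPM, a limit that covers counting error only. The 5 genes listed as present in the line summed to 5643 to 5777 CPM in DMSO and 5607 to 5683 CPM in CAR. Each was lower with JQ1, and they summed to 2435 to 2476 CPM in JQ1 and 1832 to 1971 CPM in the Combination. Among them the mesenchymal gene VIM lay between 528 and 2199 CPM, and SPARC was the lowest at 12.2 to 36.9 CPM. Of 5 genes listed as low or absent in the line, ESR1, PGR and CDH1 stayed at or under 0.641 CPM, but ERBB2 was present at 96.7 to 154 CPM in every library, and EPCAM at 12.9 to 16.5 CPM without JQ1 and 2.5 to 3.69 CPM with it. Summed markers of leukocytes (3 of 5 listed, at most 1.0 CPM), endothelium (4 of 4 listed, 6.34 to 8.24 CPM, nearly all KDR) and fibroblasts (5 of 5 listed, 2.89 to 8.8 CPM) were low. DMSO replicate 3 stood apart from the other controls, with a chi-square per degree of freedom of 10.6 and 12.6 against them, where the other replicate pairs gave 1.46 to 2.31. Its log2 levels, less the mean of the other controls, went down with transcript length (Spearman's rho -0.757 over 6152 genes). Combination replicate 1 held liver transcripts: the 12 liver markers summed to 169.6 CPM there and to 1.34 to 3.57 CPM in every other library. Where leaving out a library changed a call, its value without that library stands beside the result.

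Under JQ1, alone or with CAR, HAS2, CEMIP and HMMR fell by about an order of magnitude or more, CD44 fell slightly, and CEMIP2, HYAL1 and HYAL2 rose, while HAS3 did not pass the test. Under CAR alone the pattern was smaller and different: CEMIP was low, CEMIP2 fell slightly and HAS2 rose. At an adjusted p under 0.05 (edgeR, Benjamini-Hochberg) and with CEMIP set aside as known beforehand, 1 of the other 8 genes (HAS2) was higher and 1 (CEMIP2) lower in CAR than in DMSO, where 27.3% of all genes tested were called higher and 30.1% lower. In JQ1 against DMSO 4 of all 9 were higher and 4 lower, CEMIP counted among the lower, against 41.5% and 42.2% of all genes. In the Combination against DMSO the counts were again 4 and 4, CEMIP among the lower, against 42.6% and 42.8%. These 3 comparisons share the DMSO libraries, and nothing about the genes as a group is read from the counts.

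**Figure D1:**
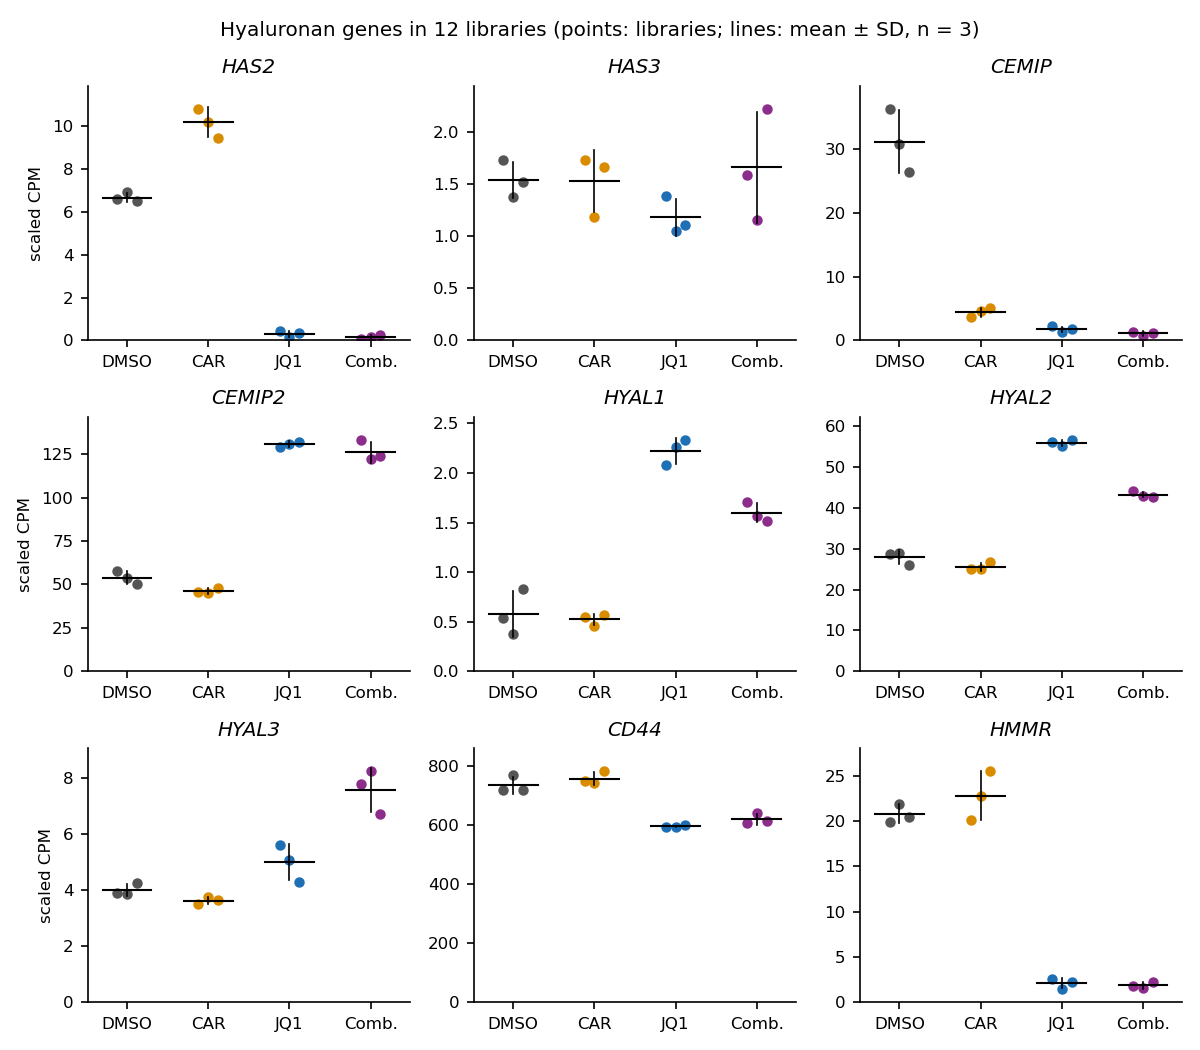
Scaled CPM (vertical axes, starting at 0) of the 9 genes in the 12 libraries, by group (Comb., Combination). Points are libraries, and lines give the mean ± SD of 3. HAS2, CEMIP and HMMR are near the axis in JQ1 and the Combination, CEMIP2, HYAL1 and HYAL2 are higher there, and HAS3 overlaps between all groups.

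The split of calls over all genes depended on the scaling of the libraries. Of all called genes, 47.6% were higher in CAR than in DMSO with TMM scaling and 35.7% with scaling to total counts. For the Combination against DMSO these shares were 49.9% and 39.3%, and for the Combination against JQ1 50.1% and 32.9%. Scaling to total counts moved the median log2 change of all genes by -0.12 in JQ1 against DMSO, by -0.21 in the Combination against DMSO and by -0.14 in the Combination against CAR, and the changes below are relative to the TMM scale.

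HAS2, the main synthase of long hyaluronan chains in many mesenchymal cells, was the gene with the widest span. It stood at 6.61, 6.91 and 6.5 CPM in the DMSO libraries and at 10.8, 10.2 and 9.47 CPM in the CAR libraries. All 3 CAR libraries lay above all 3 controls, a 1.52-fold rise (log2 0.61 ± 0.11 SE, adjusted p = 7.15e-05). In the JQ1 libraries only 8, 3 and 6 HAS2 reads were counted (0.427, 0.166 and 0.349 CPM), and in the Combination libraries 1, 3 and 4 reads (0.0591, 0.174 and 0.234 CPM). No library with JQ1 came near a library without it. Summed over the groups, 17 reads in JQ1 stood against 397 in DMSO, a scaled level 21.2-fold lower with a 95% counting interval of 13.1 to 36.7, and the fit gave log2 -4.38 ± 0.22 (adjusted p = 2.71e-14). The 8 reads of the Combination gave a level 42.7-fold lower than DMSO (interval 21.5 to 99.6, log2 -5.36 ± 0.25, adjusted p = 1.05e-14). In the ranking of all 12645 genes tested by log2 change in JQ1 against DMSO, HAS2 was number 90 from the lowest.

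HAS3, which makes shorter chains, was low in every group and showed no comparable change. Its levels were 1.73, 1.38 and 1.52 CPM with DMSO, 1.73, 1.18 and 1.66 CPM with CAR, 1.39, 1.05 and 1.11 CPM with JQ1, and 1.59, 1.16 and 2.22 CPM with the Combination. The groups overlapped throughout. The log2 change was -0.38 in JQ1 against DMSO (95% interval -0.96 to 0.20, adjusted p = 0.163) and 0.10 in the Combination (-0.44 to 0.65, adjusted p = 0.687), so a change of up to about that size is not excluded by these counts of 19 to 38 reads per library. The small Combination value turned to -0.10 with scaling to total counts and to -0.16 without Combination replicate 3. HAS3 shares 365 exon bases with CHTF8 on the opposite strand, and whether the counting used strand is not given, so reads of the shared stretch cannot be assigned with certainty.

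The ratio of the 2 synthases within a library needs no scaling between libraries. Their longest coding transcripts have nearly the same length, 4190 and 4220 bases. HAS2 exceeded HAS3 3.86-, 5.04- and 4.32-fold per length in the DMSO libraries and 6.3-, 8.67- and 5.73-fold in the CAR libraries. In the JQ1 libraries the ratio was 0.31, 0.159 and 0.318, and in the Combination 0.0373, 0.151 and 0.106. The order of the 2 synthases was thus inverted in 6 of 6 libraries with JQ1, with HAS3 the more abundant transcript. HAS1, the remaining synthase, was not analysed here.

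**Figure D2:**
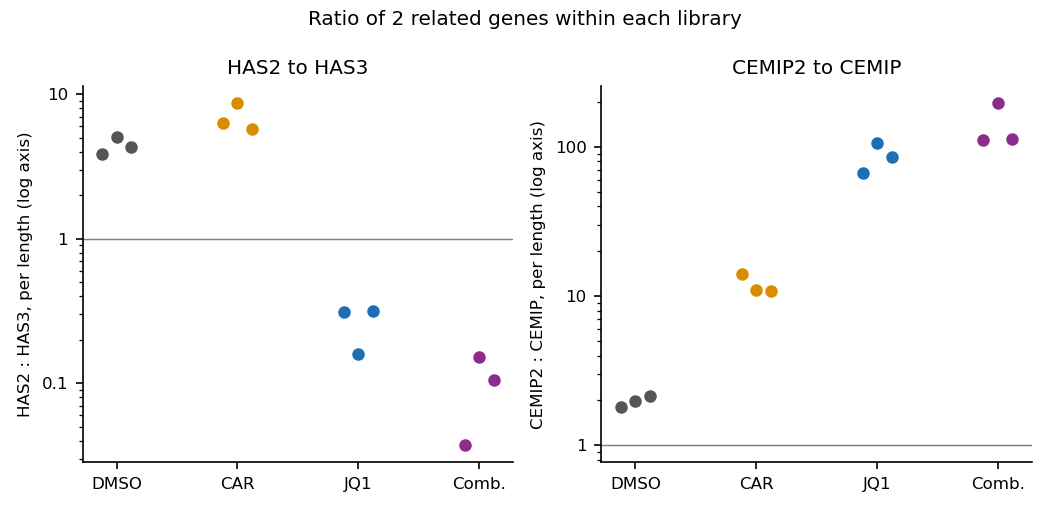
Ratio of 2 related genes within each library, per length of the longest coding transcript, on log axes. Points are the 12 libraries by group (Comb., Combination), and the grey line marks equal levels. HAS2 to HAS3 is above 1 in every library without JQ1 and below 1 in every library with it, and CEMIP2 to CEMIP goes from about 2 in DMSO to above 60 with JQ1.

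CEMIP, a secreted protein needed for the depolymerisation of hyaluronan by skin and cancer cells, was the only one of the 9 genes with a level more than 2-fold lower under each compound alone. It measured 36.3, 30.8 and 26.5 CPM in DMSO and 3.66, 4.62 and 5.05 CPM in CAR. The lowest control was above the highest CAR library by a wide margin, and the CAR level was 7.03-fold lower (log2 -2.81 ± 0.14). CEMIP was number 10 from the lowest of the 12645 genes tested, a rank of the change known beforehand and so no evidence. In JQ1 it measured 2.19, 1.38 and 1.75 CPM and in the Combination 1.36, 0.698 and 1.23 CPM. These groups lay below both DMSO and CAR without overlap, with levels 17.5-fold lower than DMSO in JQ1 (log2 -4.13 ± 0.16) and 28.4-fold lower in the Combination (log2 -4.83 ± 0.18). Both values are descriptions too, since the change known beforehand was measured against the same DMSO libraries. CEMIP shares 224 exon bases with MESD on the opposite strand. The CEMIP to MESD ratio per length was 0.291 to 0.419 in the controls, 0.0505 to 0.0632 with CAR and 0.00987 to 0.0268 in the 6 libraries with JQ1.

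CEMIP2, a transmembrane relative of CEMIP that has been described as a cell-surface hyaluronidase, went the other way under JQ1. Its levels were 57.8, 53.8 and 50.5 CPM in DMSO and 45.4, 44.9 and 48.1 CPM in CAR, then 129, 131 and 132 CPM in JQ1 and 133, 122 and 124 CPM in the Combination. No library of CAR reached the controls, a fall of 1.17-fold (log2 -0.23 ± 0.05, adjusted p = 0.00109), and every library with JQ1 had over 120 CPM. The rise was 2.42-fold in JQ1 (log2 1.28 ± 0.05, adjusted p = 4.32e-16) and 2.34-fold in the Combination (log2 1.23 ± 0.05, adjusted p = 8.12e-16).

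Set against each other per length, CEMIP2 exceeded CEMIP 1.8-, 1.97- and 2.15-fold with DMSO, 14.0-, 11.0- and 10.8-fold with CAR, 66.5-, 107- and 85.5-fold with JQ1 and 111-, 197- and 114-fold with the Combination. The 4 groups followed each other in that order, and the ranges did not overlap. Both genes contributed to the ratio under JQ1, while under CAR it moved through CEMIP, since CEMIP2 itself was lower. The starts of this pair are shown because they are related genes that moved in opposite directions under JQ1. The windows run from 250 bases before to 50 bases after the RefSeq transcription start (GRCh38.p14), CEMIP at chr15:80779120-80779419 on the plus strand and CEMIP2 at chr9:71768464-71768763 on the minus strand. Capitals mark matches to the 5 motifs searched on both strands: TTTGAA (the cell cycle homology region), CCAAT (the CCAAT box), TGANNNNGC (the antioxidant response element), TGANTCA (AP-1) and CACGTG (the E-box).
CEMIP: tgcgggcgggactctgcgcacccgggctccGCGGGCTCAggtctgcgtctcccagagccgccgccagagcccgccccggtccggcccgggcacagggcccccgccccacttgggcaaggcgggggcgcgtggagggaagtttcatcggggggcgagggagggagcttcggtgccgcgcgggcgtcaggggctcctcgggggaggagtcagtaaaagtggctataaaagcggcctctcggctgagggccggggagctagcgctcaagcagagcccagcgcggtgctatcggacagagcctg
CEMIP2: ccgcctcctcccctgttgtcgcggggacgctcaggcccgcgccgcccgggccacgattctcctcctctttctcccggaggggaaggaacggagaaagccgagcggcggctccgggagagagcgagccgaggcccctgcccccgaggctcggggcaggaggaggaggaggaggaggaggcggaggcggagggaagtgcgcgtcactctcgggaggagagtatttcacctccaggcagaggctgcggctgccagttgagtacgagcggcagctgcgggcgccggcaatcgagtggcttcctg
The CEMIP window holds 1 match to TGANNNNGC, written here as its reverse complement and beginning at -220 from the start site, and the CEMIP2 window holds no match to any of the 5. Of the 18685 windows of this kind over 12940 genes of the tables, 42% hold a TGANNNNGC match, so such a match is common, and it is a description of the letters only.

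The 3 hyaluronidase genes lie side by side on chromosome 3 (GRCh38, GENCODE v29), all on the minus strand: HYAL3 at chr3:50292831-50299468, HYAL1 at chr3:50299889-50312381 and HYAL2 at chr3:50317790-50322906. HYAL1 and HYAL2 rose under JQ1, to different degrees and from different levels. The smaller JQ1 rise of HYAL3 did not hold in every alternative run. HYAL2, anchored at the cell surface and able to cut long chains, was the most abundant. It measured 28.8, 29 and 25.9 CPM in the controls, 24.9, 24.9 and 26.7 CPM with CAR, 56.1, 55.1 and 56.5 CPM with JQ1 and 44.0, 42.8 and 42.7 CPM with the Combination. The JQ1 and Combination groups were apart from DMSO and from each other, with a 2.01-fold rise in JQ1 (log2 1.0 ± 0.05, adjusted p = 1.05e-13) and a 1.55-fold rise in the Combination (log2 0.63 ± 0.06, adjusted p = 5.6e-10). CAR overlapped DMSO, with a log2 change of -0.13 (adjusted p = 0.0692). That value passed the threshold without DMSO replicate 3 (-0.18, adjusted p = 0.011), without CAR replicate 3 (-0.16, adjusted p = 0.0476), and with scaling to total counts or to the upper quartile.

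HYAL1, the lysosomal enzyme that acts on shorter pieces, was close to the limit of detection without JQ1. Its reads numbered 11, 7 and 17 in DMSO and 11, 9 and 11 in CAR (0.543, 0.372, 0.831 and 0.544, 0.462, 0.572 CPM). With JQ1 the reads numbered 39, 41 and 40 (2.08, 2.26 and 2.33 CPM), and in the Combination 29, 27 and 26 (1.71, 1.57 and 1.52 CPM). The libraries with JQ1 lay above all those without it. The rise was 3.75-fold in JQ1 (log2 1.91 ± 0.24, adjusted p = 2.36e-07) and 2.71-fold in the Combination (log2 1.44 ± 0.26, adjusted p = 2.99e-05). For CAR against DMSO the log2 change was -0.16 with an interval of -0.90 to 0.59 (adjusted p = 0.718), and it turned to 0.19 without DMSO replicate 3.

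HYAL3, whose enzyme activity is uncertain, measured 3.9, 3.88 and 4.25 CPM with DMSO, 3.51, 3.75 and 3.64 CPM with CAR, 5.6, 5.08 and 4.31 CPM with JQ1, and 7.8, 8.25 and 6.73 CPM with the Combination. No group overlapped another. For CAR against DMSO the log2 change was -0.14 (adjusted p = 0.377), and the Combination was highest. Its 1.89-fold rise over DMSO (log2 0.92 ± 0.12, adjusted p = 3.77e-07) held under every alternative run. The 1.25-fold rise in JQ1 (log2 0.32 ± 0.13, adjusted p = 0.0268) did not: the adjusted p was 0.0732 without DMSO replicate 1, 0.0693 without DMSO replicate 2, 0.145 without JQ1 replicate 1 and 0.0567 without JQ1 replicate 2. It was 0.103 with DESeq2, 0.151 with scaling to total counts and 0.0674 with the upper quartile.

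HYAL3 cannot be read without its neighbour NAA80, an acetyltransferase of actin, which lies within its span on the same strand and shares 248 exon bases with it. NAA80 measured 4.39, 4.41 and 5.52 CPM in DMSO, 6.03, 6.85 and 6.0 in JQ1 and 5.85, 6.1 and 7.79 in the Combination. Its rises were 1.32-fold in JQ1 (log2 0.40 ± 0.15, adjusted p = 0.018) and 1.38-fold in the Combination (log2 0.46 ± 0.15, adjusted p = 0.00693). The first passed no longer without DMSO replicate 1 (0.33, adjusted p = 0.0717), DMSO replicate 2 (0.34, 0.0591) or JQ1 replicate 2 (0.33, 0.0749), nor with DESeq2 (0.39, 0.0535) or scaling to total counts (0.28, 0.092). The other passed no longer without Combination replicate 3 (0.32, 0.0692) or with scaling to total counts (0.25, 0.121). In Combination replicate 3 HYAL3 was the lowest of its group and NAA80 the highest. Added together, the 2 genes gave 8.29, 8.29 and 9.77 CPM with DMSO, 8.75, 7.14 and 7.9 CPM with CAR, 11.6, 11.9 and 10.3 CPM with JQ1, and 13.7, 14.4 and 14.5 CPM with the Combination, a sum on which the groups with JQ1 stood apart from those without it and from each other. How the counting assigned reads in the shared exons is not given in the sources used here.

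The shared start of HYAL3 and NAA80 is shown because it bears on that ambiguity. RefSeq gives HYAL3 a window at chr3:50299356-50299655 on the minus strand that is letter for letter the NAA80 window, and a further window at chr3:50298811-50299110. Capitals mark the 2 matches to TGANNNNGC, the first on the opposite strand.
HYAL3 and NAA80: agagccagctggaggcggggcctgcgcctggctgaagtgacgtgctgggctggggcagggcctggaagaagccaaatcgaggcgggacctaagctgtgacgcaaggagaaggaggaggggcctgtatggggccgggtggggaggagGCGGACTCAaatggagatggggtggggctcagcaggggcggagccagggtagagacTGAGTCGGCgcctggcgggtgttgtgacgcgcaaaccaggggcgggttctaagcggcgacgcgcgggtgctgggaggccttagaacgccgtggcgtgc
No match to the other 4 motifs is in that window, and the further HYAL3 window, like those of HYAL1 and HYAL2, holds no match to any of the 5.

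The rise of the hyaluronidase genes, which for HYAL3 held in every run only in the Combination, did not extend to all of their neighbours. TUSC2, which overlaps HYAL2 by 509 exon bases on the same strand, rose 1.65-fold in JQ1 (log2 0.72 ± 0.06, adjusted p = 3.28e-10) and 2.02-fold in the Combination (log2 1.02 ± 0.06, adjusted p = 5.99e-13). It also rose 1.25-fold in CAR (log2 0.32 ± 0.06, adjusted p = 0.000167), where HYAL2 had no call. CYB561D2 rose 1.51-fold in JQ1 and 1.8-fold in the Combination. IFRD2, which overlaps the end of HYAL3 by 43 exon bases, fell 4.05-fold in JQ1 (log2 -2.02 ± 0.06, adjusted p = 1.38e-18) and 2.65-fold in the Combination after a 1.79-fold rise in CAR. RASSF1, a tumour suppressor gene beyond TUSC2, fell 3.85-fold in JQ1 (log2 -1.94 ± 0.10, adjusted p = 2.66e-14) and 3.46-fold in the Combination. The HYAL2 to TUSC2 ratio per length was 0.454 to 0.555 in the controls, 0.341 to 0.414 with CAR, 0.598 to 0.637 with JQ1 and 0.369 to 0.419 with the Combination, so that HYAL2 and its overlapping neighbour did not move in step.

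Of the rest of the family, HYAL4 had 0 to 3 reads per library, at or under the floor. SPAM1 and the pseudogenes HYALP1 and HYAL6P were not analysed here. Within the cluster HYAL2 exceeded HYAL1 19.3- to 48.4-fold per length in DMSO and 28.4- to 33.5-fold in CAR. That ratio was 15.1 to 16.7 in JQ1 and 15.9 to 17.4 in the Combination, below every library without JQ1.

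**Figure D3:**
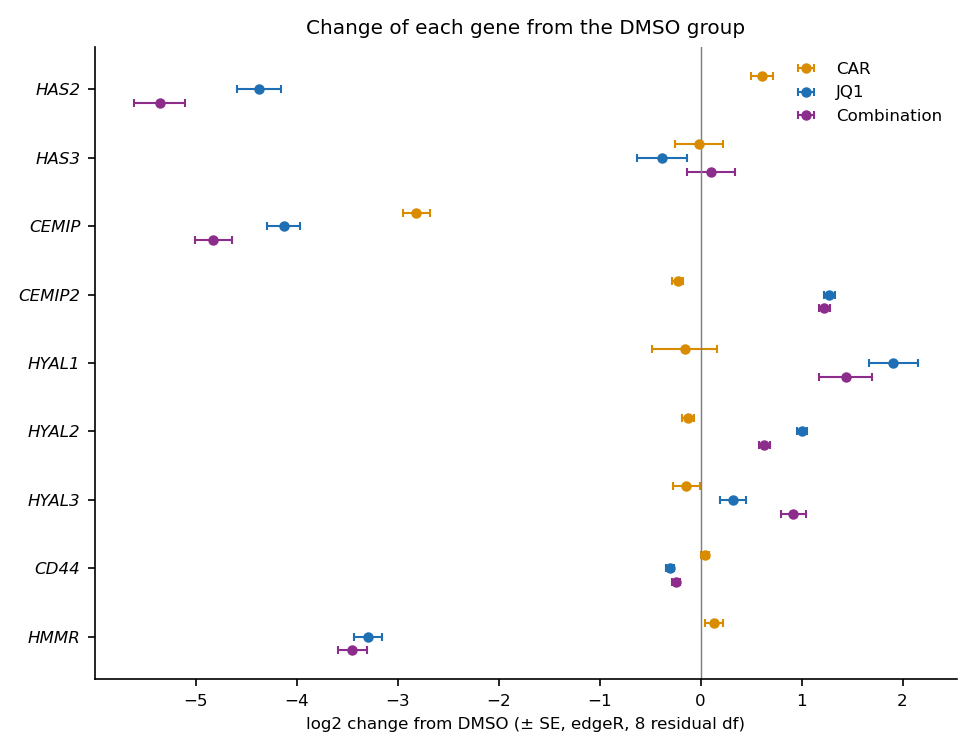
Log2 change from DMSO (horizontal axis) of each gene in CAR, JQ1 and the Combination. Points are the fitted changes over 3 libraries a group and bars their standard errors; the 3 sets share the DMSO libraries. HAS2, CEMIP and HMMR lie beyond -3 with JQ1, CEMIP is the only gene beyond -1 with CAR alone, and CEMIP2 and the 3 HYAL genes lie to the right of 0 with JQ1.

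CD44, the principal hyaluronan receptor and a marker of mesenchymal and stem-like breast cancer cells, was by far the most abundant of the 9 per length and had small changes. It measured 718, 769 and 718 CPM with DMSO, 748, 743 and 783 CPM with CAR, 595, 594 and 599 CPM with JQ1, and 607, 641 and 613 CPM with the Combination. The libraries with JQ1 lay below all those without it. The falls were 1.23-fold in JQ1 (log2 -0.30 ± 0.04, adjusted p = 1.25e-07) and 1.18-fold in the Combination (log2 -0.24 ± 0.04, adjusted p = 2.68e-06). CAR and DMSO overlapped, with a log2 change of 0.04 (interval -0.04 to 0.13, adjusted p = 0.306) that became -0.02 with scaling to total counts. The tables count genes, so CD44's splice variants were not analysed here.

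HMMR, which binds hyaluronan outside the cell and also works inside it at the poles of the mitotic spindle, fell steeply with JQ1, as did most of the spindle genes it works with. It measured 19.9, 21.9 and 20.4 CPM in DMSO and 20.1, 22.8 and 25.5 in CAR, and 2.61, 1.49 and 2.21 CPM in JQ1 and 1.83, 1.57 and 2.28 in the Combination. DMSO and CAR overlapped, and both were far above every library with JQ1. The level was 9.81-fold lower in JQ1 (log2 -3.29 ± 0.14, adjusted p = 1.91e-15) and 10.9-fold lower in the Combination (log2 -3.45 ± 0.14, adjusted p = 1.42e-15). For CAR against DMSO the log2 change was 0.14 (interval -0.07 to 0.34, adjusted p = 0.205).

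Of 7 partners of HMMR at the spindle, 6 fell and 0 rose in JQ1, with a median log2 change of -3.02 beside -0.01 over all genes tested, of which 41.5% rose and 42.2% fell. In the Combination 7 fell and 0 rose, beside 42.8% and 42.6% of all genes. AURKA, the kinase that HMMR helps to activate, fell 10.2-fold in JQ1 (log2 -3.35 ± 0.06, adjusted p = 8.83e-21), from 241 to 259.9 CPM in DMSO to 21.2 to 27.1 CPM. FAM83D, which brings HMMR to the spindle, fell 8.11-fold (log2 -3.02 ± 0.06, adjusted p = 5.85e-21), and the mitotic kinase PLK1 17.2-fold (log2 -4.10 ± 0.09, adjusted p = 1.09e-18). BRCA1, part of the ubiquitin ligase that acts on HMMR, fell 6.64-fold (log2 -2.73 ± 0.08, adjusted p = 7.18e-18). DYNLL1, a dynein light chain that most cells hold in large amounts, was the member with no call in JQ1 (log2 0.06 ± 0.05, adjusted p = 0.267, and -0.06 with scaling to total counts). Its small fall in the Combination (log2 -0.10 ± 0.05, adjusted p = 0.0451) passed no longer without DMSO replicate 3 (-0.03, adjusted p = 0.417), without any 1 of the 3 Combination replicates (0.0734 to 0.124), or without any 1 of the CAR or JQ1 replicates (0.055 to 0.0691). Without DMSO replicate 3 it was called higher in JQ1 (0.13, adjusted p = 0.000261). Under CAR 5 of the 7 rose and 1 fell (median log2 0.33 beside -0.02, with 27.3% and 30.1% of all genes called), among them BRCA1 (log2 0.47 ± 0.06, adjusted p = 1.55e-06) and AURKA (log2 0.43 ± 0.05, adjusted p = 4.5e-07), while HMMR itself had no call. The fit without a library changed the calls of BARD1 and DYNLL1 under CAR, which passed no longer without CAR replicate 3, without DMSO replicate 2 and, for DYNLL1, without CAR replicate 2 or DMSO replicate 1 (adjusted p 0.0543 to 0.191). The DYNLL1 rise also failed with scaling to total counts (0.302) or the upper quartile (0.12) and with only the 2 groups fitted (0.074). The BARD1 fall failed with DESeq2 (0.0507).

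**Figure D4:**
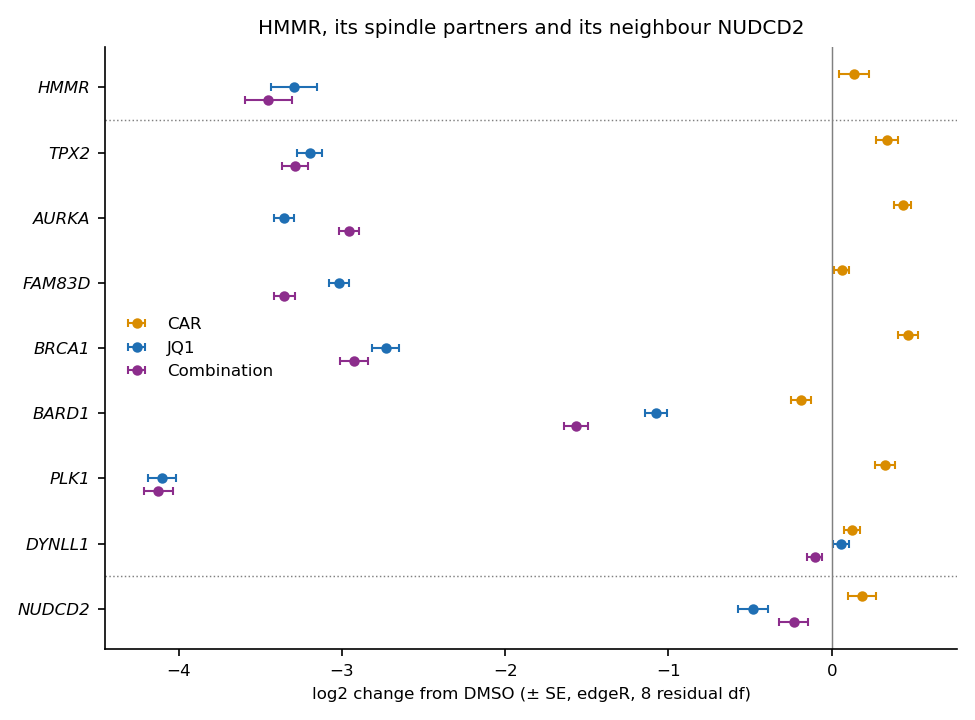
Log2 change from DMSO (horizontal axis, bars are standard errors, 3 libraries a group) of HMMR, its 7 spindle partners and, below the dotted line, NUDCD2, whose gene starts next to HMMR. HMMR, TPX2, AURKA, FAM83D, BRCA1 and PLK1 lie beyond -2.5 with JQ1, BARD1 between -1 and -2, and DYNLL1 and NUDCD2 above -0.5.

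The start of HMMR is shown because the gene moved with cell cycle genes and lies back to back with another gene. HMMR is at chr5:163460203-163491945 on the plus strand (GRCh38, GENCODE v29), and NUDCD2, a cochaperone gene on the minus strand, begins 62 bases away. The RefSeq window of HMMR (GRCh38.p14, chr5:163460382-163460681) has, in capitals, 2 adjacent copies of TTTGAA and 5 matches to CCAAT on either strand, where ATTGG is CCAAT read from the opposite strand and the last pair overlaps by 2 letters.
HMMR: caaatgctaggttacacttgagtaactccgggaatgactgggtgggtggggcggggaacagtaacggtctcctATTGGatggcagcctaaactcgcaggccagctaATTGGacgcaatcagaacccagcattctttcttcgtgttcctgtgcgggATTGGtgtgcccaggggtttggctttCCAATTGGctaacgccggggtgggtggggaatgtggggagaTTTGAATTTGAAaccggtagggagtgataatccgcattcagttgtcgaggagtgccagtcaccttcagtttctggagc
Counted from the start site, the TTTGAA copies begin at -28 and -22 and the CCAAT matches at -177, -144, -95, -69 and -66. TTTGAA is held by 11.5% of the 18685 windows, CCAAT by 34.5%, and at least 1 of each by 4.54%. In background knowledge, CCAAT boxes followed by a cell cycle homology region are typical of promoters of late cell cycle genes. Of the partners with a window, PLK1 holds 1 match to each motif, and the 2 BRCA1 windows, the BARD1 window and the 2 DYNLL1 windows hold no TTTGAA. The NUDCD2 window also holds 1 match to each.

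NUDCD2 did not follow HMMR. It measured 23.1, 22.7 and 28.2 CPM with DMSO, 29.8, 29.4 and 25.0 CPM with CAR, 19.0, 17.7 and 16.2 CPM with JQ1, and 21.4, 19.8 and 21.8 CPM with the Combination. In JQ1 it fell 1.4-fold (log2 -0.48 ± 0.09, adjusted p = 5.41e-05), where HMMR fell 9.81-fold. Its fall in the Combination (log2 -0.23 ± 0.09, adjusted p = 0.02) passed no longer without DMSO replicate 3 (-0.12, adjusted p = 0.138) or Combination replicate 2 (-0.19, adjusted p = 0.0914). Within libraries HMMR stood at 1.87 to 2.5 times NUDCD2 per length in the controls, 1.74 to 2.64 with CAR, 0.217 to 0.354 with JQ1 and 0.205 to 0.27 with the Combination. HMMR also shares 113 exon bases with the antisense gene HMMR-AS1, which was not analysed here.

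Ordered by level per kilobase of the longest coding transcript, CD44 came first in every group, with group means of 128 CPM per kilobase in DMSO and 104 in JQ1. In DMSO it was followed by CEMIP2 (8.28), HYAL2 (6.88), HMMR (6.7), CEMIP (4.24), HYAL3 (2.06), HAS2 (1.59), HAS3 (0.365) and HYAL1 (0.231). In that order HYAL2 and HMMR overlapped between libraries, as did HAS3 and HYAL1, and the other neighbours did not. In CAR, CEMIP dropped to 0.604 CPM per kilobase, below HAS2 (2.42) and HYAL3 (1.87), and HMMR overlapped CEMIP2. In JQ1 the order was CD44, CEMIP2 (20.1), HYAL2 (13.8), HYAL3 (2.57), HYAL1 (0.884), HMMR (0.679), HAS3 (0.28), CEMIP (0.241) and HAS2 (0.0749), with HYAL1 and HMMR overlapping and HAS3 and CEMIP overlapping. HAS2 was last in the Combination as well (0.0372), and there HMMR overlapped both HYAL1 and HAS3. With the union of all exons as the length, HYAL2 instead of CEMIP2 followed CD44 in DMSO, and these then overlapped.

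Between the Combination and JQ1 alone, 1 of these genes was called higher and 1 lower, where 26.0% and 25.9% of all genes were called. HYAL2 was 1.29-fold lower in the Combination (log2 -0.37 ± 0.05, adjusted p = 3.89e-06), and its libraries were apart from those of JQ1. HYAL3 was 1.52-fold higher (log2 0.60 ± 0.12, adjusted p = 0.00023), also without overlap. CEMIP was lower by log2 -0.70 ± 0.32 in groups that did not overlap, with an adjusted p of 0.081. It passed the threshold without DMSO replicate 1 (0.0329), without DMSO replicate 3 (0.0148), with DESeq2 (0.0314), with only the 2 groups fitted (0.0201) and with scaling to total counts (0.0465). HYAL1 was lower by log2 -0.47 ± 0.20 (adjusted p = 0.0597), also in groups that did not overlap. It passed with only the 2 groups fitted (0.0482) and with scaling to total counts (0.0262). HAS2 was lower by -0.98 ± 0.52 on 8 against 17 reads (adjusted p = 0.146), and HAS3 was higher by 0.48 ± 0.25 (adjusted p = 0.118, and 0.0347 without Combination replicate 2). The CD44 libraries of the Combination lay above those of JQ1 by a small margin. For CEMIP2 the interval of the log2 difference was -0.16 to 0.06, for CD44 -0.03 to 0.14 and for HMMR -0.69 to 0.37. The CD44 difference passed without DMSO replicate 3 (0.06, adjusted p = 0.045) and turned to -0.03 with scaling to total counts, and that of HMMR turned to 0.04 without JQ1 replicate 1.

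Against CAR, the Combination had 4 genes higher and 4 lower, CEMIP counted among the lower, beside 42.4% and 43.0% of all genes. HAS2 was 62.4-fold lower than in CAR by the fit, and 65.1-fold lower by summed reads (8 against 599, 95% counting interval 32.8 to 151). CEMIP was 4.04-fold lower (log2 -2.01 ± 0.26), a description, since it contains the CAR level known when the genes were chosen. HMMR was 12-fold lower and CD44 1.22-fold lower. CEMIP2 was 2.74-fold higher, HYAL1 3.02-fold, HYAL2 1.69-fold and HYAL3 2.09-fold.

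Whether CAR did the same with JQ1 as without it was asked through the interaction, the CAR effect in the presence of JQ1 minus the CAR effect in its absence. With CEMIP set aside, 1 of the other 8 genes (HYAL3) was called higher and 2 (HAS2 and HYAL2) lower, beside 20.1% and 18.2% of all genes. CEMIP had the largest value: CAR alone went with a 7.03-fold lower level, and CAR added to JQ1 with a 1.62-fold lower one, a log2 difference of 2.12 ± 0.38. Since this contains the CAR change that was known when the genes were chosen, it is a description. HAS2 rose under CAR alone but was not higher in the Combination than in JQ1, a log2 difference of -1.59 ± 0.53 (adjusted p = 0.0219). It rests on 8 and 17 reads and passed no longer without Combination replicate 1 (-1.22, adjusted p = 0.112), JQ1 replicate 1 (-1.29, 0.141) or JQ1 replicate 3 (-1.51, 0.058). HYAL3 had log2 0.74 ± 0.18 (adjusted p = 0.00255), lower by -0.14 with CAR alone and higher by 0.60 with JQ1 present. HYAL2 had log2 -0.25 ± 0.08 (adjusted p = 0.0167), which passed no longer without CAR replicate 3 (-0.21, adjusted p = 0.0545). CEMIP2 had 0.18 ± 0.07 (adjusted p = 0.0546) and passed without DMSO replicate 3 (0.23, 0.00233), CAR replicate 3 (0.21, 0.0447) or Combination replicate 2 (0.20, 0.0455).

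**Figure D5:**
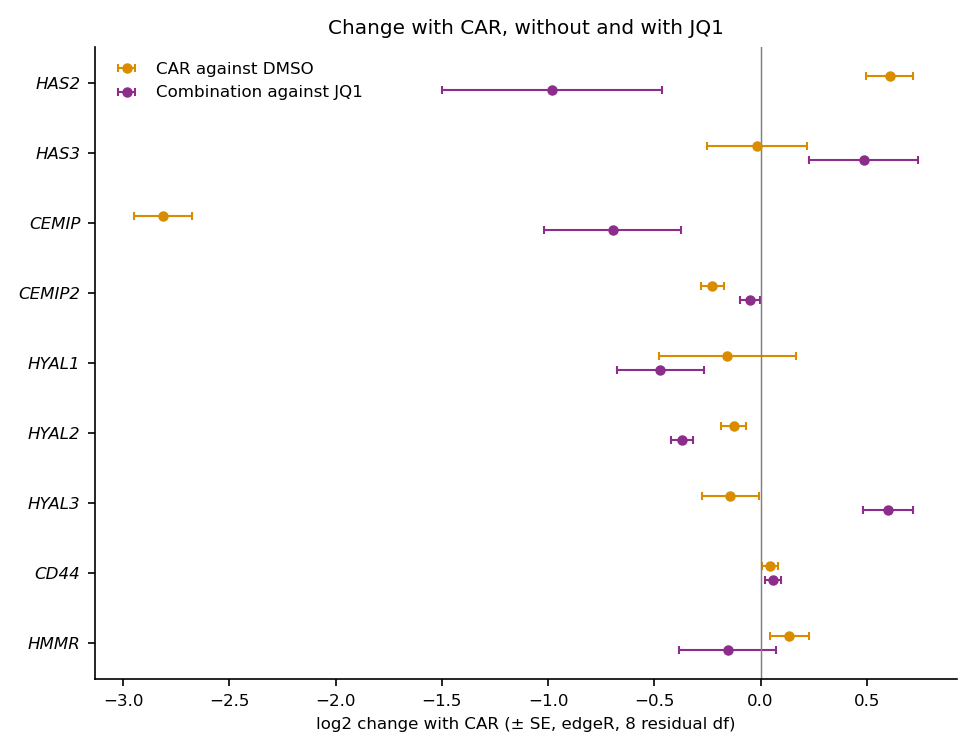
Log2 change with CAR (horizontal axis, bars are standard errors, 3 libraries a group) in the absence of JQ1 (CAR against DMSO) and in its presence (Combination against JQ1). CEMIP lies far from 0 without JQ1 and nearer to it with JQ1, HAS2 changes side, and HYAL3 is higher only when JQ1 is present, with an interaction value of 0.74 for HYAL3 and -1.59 for HAS2.

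Of 8 genes that supply the nucleotide sugars, 2 were higher and 4 lower in JQ1 (41.5% and 42.2% of all genes), with a median log2 change of -0.12 beside -0.01 over all genes tested, and 5 were higher and 1 lower in CAR (median 0.16 beside -0.02, with 27.3% and 30.1% of all genes called). Among the 5, UGDH passed no longer without CAR replicate 3 (0.11, adjusted p = 0.101), and with scaling to total counts neither UGDH (adjusted p = 0.116) nor GFPT1 (0.103) passed. GFPT1, which was among those higher in JQ1 and the Combination, passed in neither with that scaling (adjusted p = 0.668 and 0.145), where its Combination value turned to -0.08, nor in the Combination without Combination replicate 2 (0.066). In JQ1 UGP2, which makes UDP-glucose, fell 1.87-fold (log2 -0.91 ± 0.05, adjusted p = 9.08e-13), and UGDH, which turns it into UDP-glucuronic acid, fell 1.75-fold (log2 -0.81 ± 0.06, adjusted p = 2.41e-11). PGM3, of the UDP-N-acetylglucosamine branch, rose 1.3-fold. In CAR GNPNAT1, of the same branch, rose 1.32-fold (log2 0.40 ± 0.04, adjusted p = 3.2e-08) and GFPT2, an isoform of the enzyme that opens that branch, 1.22-fold. In the Combination 3 were higher and 5 lower (42.6% and 42.8% of all genes), UGP2 by 2.27-fold and GFPT2 higher by 1.45-fold.

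Of 18 matrix proteins that bind hyaluronan or travel with it, 15 were listed and 5 could be tested. In JQ1 2 rose and 1 fell, beside 41.5% and 42.2% of all genes. HAPLN3 (log2 0.35, adjusted p = 0.18) was also called higher without JQ1 replicate 1 (0.56, adjusted p = 0.0309). ITIH4 (0.56, adjusted p = 0.382) was called higher without Combination replicate 1 (0.56, adjusted p = 0.0494). PTX3, a pentraxin built into hyaluronan matrices, fell 8.4-fold (log2 -3.07 ± 0.09, adjusted p = 5.08e-18), from 34.7 to 35.8 CPM in DMSO to 3.37 to 5.23 CPM. HABP4, an intracellular protein named for hyaluronan binding, rose 3.21-fold (log2 1.68 ± 0.07, adjusted p = 4.72e-16). HAPLN2, a link protein, went from 5, 0 and 6 reads in DMSO to 38, 35 and 39 reads in JQ1 (log2 3.44 ± 0.40). With at most 6 reads in any library without JQ1, it passed the filter on low counts only through libraries with JQ1. Its rise, 1 of the 2 counted above, is therefore a description. The plasma proteins of the list move with the liver transcripts of Combination replicate 1: ITIH1, ITIH2, ITIH3, AMBP and HABP2 had 45, 42, 19, 39 and 9 reads there and at most 4 in any other library, and ITIH4 had 61 reads beside 12 and 13 in the other Combination libraries. The ITIH4 call in the Combination against CAR (log2 1.57, adjusted p = 0.0243) was 0.38 with an adjusted p of 0.353 without that library.

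The other receptors of hyaluronan split. LAYN, a membrane receptor with a lectin domain, rose 3.14-fold in JQ1, from 82.3, 78.4 and 88.5 CPM in DMSO to 255, 269 and 260.2 CPM (log2 1.65 ± 0.04, adjusted p = 7.33e-19), and stood at 245, 240.3 and 237 CPM in the Combination. The Toll-like receptors TLR2 and TLR4, which have been reported to sense hyaluronan fragments, fell 12.6-fold (log2 -3.66 ± 0.20, adjusted p = 2.04e-13) and 4.59-fold (log2 -2.20 ± 0.11, adjusted p = 1.88e-14) in JQ1. TLR2 fell 1.94-fold in CAR as well (log2 -0.95 ± 0.14, adjusted p = 5.31e-06). LYVE1, STAB1 and STAB2, receptors of lymphatic and sinusoidal endothelium, had at most 6 reads in a library.

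Of 12 tested genes among the CD44 linkers, sheddases, ligands and splicing regulators, 5 were higher and 7 lower in JQ1 (median log2 -0.40 beside -0.01 over all genes, with 41.5% and 42.2% called), 7 higher and 3 lower in CAR (27.3% and 30.1% called), and 5 higher and 6 lower in the Combination (42.6% and 42.8% called). MMP14, a membrane protease that cuts CD44, fell 2.88-fold in JQ1 (log2 -1.52 ± 0.04, adjusted p = 1.31e-19). MSN, which ties CD44 to actin, fell 2.23-fold, from 1068 to 1192 CPM in DMSO to 509.5 to 515 CPM (log2 -1.16 ± 0.04, adjusted p = 3.19e-17). RDX, a relative of MSN with the same role, rose 1.6-fold (log2 0.67 ± 0.04, adjusted p = 1.35e-12). ESRP2, a splicing regulator of CD44, fell 6.63-fold in JQ1 and rose 1.91-fold in CAR (log2 0.93 ± 0.10, adjusted p = 6.05e-08). SRGN, a proteoglycan ligand of CD44, rose 2.05-fold in CAR (log2 1.04 ± 0.04, adjusted p = 6.1e-14), and the sheddase ADAM17 rose 1.65-fold (log2 0.72 ± 0.04, adjusted p = 2.19e-11). Of the 7 higher in CAR, MSN passed no longer without CAR replicate 2 or 3 (adjusted p 0.0606 and 0.0884), with scaling to total counts (0.424) or the upper quartile (0.12), or with only the 2 groups fitted (0.077).

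Likeness was described by Pearson's r of log2 CPM over the 12 libraries, among the 10282 genes whose mean level reached 5 CPM. The libraries share 4 treatments, so r mostly reflects the group means. The genes most like HAS2 were RFC3 (r = 0.998), BCL2 (0.998) and FAM72A (0.997), and those most like HMMR were TRIP13 (0.999), PIGK (0.997) and EXO1 (0.997). HAS2 and HMMR had r = 0.989 with each other. CEMIP was most like PLAT (0.993), LOXL1 (0.993) and TSPAN9 (0.986). Their lower levels in CAR follow from the choice by likeness to CEMIP. PLAT, the tissue plasminogen activator, had a mean of 136 CPM with DMSO, 65.7 with CAR, 48.5 with JQ1 and 41.1 with the Combination. For LOXL1, a collagen crosslinking enzyme, these means were 16.5, 5.98, 3.56 and 3.09. CEMIP2 was most like FOXO1, RANBP9 and SLC38A2 (0.998 each), and HYAL2 most like EPS15 (0.999), STK17B (0.999) and FZD4 (0.997). For HYAL1 these were ISCU (0.992), SRSF5 (0.988) and TOP1MT (0.987), for HYAL3 REEP5 (0.977), RAB10 (0.977) and ATP6V1H (0.976), and for CD44 TMEM185B (0.989), MCFD2 (0.988) and SERPINB8 (0.987). HAS3, whose groups overlap, had no gene above ZNF100 (0.754).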

How the data were processed

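For each library the authors deposited raw read counts by gene symbol, as whole numbers. Tools named in the submitters' processing notes are HTSeq, HISAT2 and Trimmomatic, with hg38 as the build and no version or setting. Neither the annotation nor the strand setting of the counting is given in the sources used here. Stranded mRNA libraries were made from RNA whose integrity number was 7 or above, per the labels' protocols.

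The tests used edgeR 4.0.16 under R 4.3.3 on the deposited counts. A filter on low counts (filterByExpr with groups, at least 10 counts and a total of 15) left 12645 of 16384 genes. Libraries were scaled by TMM, and a robust quasi-likelihood model with 1 coefficient per group was fitted to all 12 libraries (8 residual degrees of freedom, common biological coefficient of variation 0.0408). The 6 contrasts, the interaction (Combination minus JQ1 minus CAR plus DMSO) among them, used a threshold of 0.05 on p adjusted after Benjamini and Hochberg over all genes tested. SE is the log2 change divided by the root of F, and intervals of log2 changes are at 95%. CPM is scaled by the library total times its TMM factor, and counting intervals are exact at the 95% level. Fold sizes come from the fit. Positions and lengths come from GENCODE v29, matched by symbol for 16232 of 16384 genes. Promoter windows come from RefSeq (GRCh38.p14) and were found for 8 of the 9 genes, HAS2 being the missing one. The fit was tested on simulated counts.

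The 9 genes, the lists around them and the motifs were chosen with earlier results of these data known. All 9 are named, with up to 4 genes of smallest adjusted p per list and contrast, up to 2 that moved against a list, the neighbours and, per gene, the 3 most alike. Of 117 list and marker entries 12 were not in the tables. Results of 1 of the lists are not reported here. Groups and replicate numbers came from titles and treatment labels. All replicate pairs differed by more than sampling noise. Alternatives were DESeq2 1.42.0, DESeq2 size factors, total-count and upper-quartile scaling, no filter, only the 2 groups compared, a replicate block, each library left out, and the union of exons as length.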

Additional observations from a re-analysis of the deposited data

Results flagged for a closer look

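In the interaction test of the CAR effect with and without JQ1, HYAL3 was called higher and HYAL2 and HAS2 lower. Of all genes tested, 20.1% were called higher and 18.2% lower, and nothing about the genes as a group is read from these calls. The log2 difference, with JQ1 minus without, was 0.74 for HYAL3, -0.25 for HYAL2 and -1.59 for HAS2. For CEMIP it was 2.12, which is a description, since it contains the CAR change known when the genes were chosen. The CEMIP level was 31.2 ± 4.89 CPM in DMSO and 4.44 ± 0.711 in CAR, but 1.77 ± 0.404 in JQ1 and 1.1 ± 0.35 in the Combination (SD, n = 3), and the difference between the last pair did not pass the test. HYAL3 had its highest level, 7.59 ± 0.781 CPM, in the Combination, where its overlapping neighbour NAA80 had 6.58 ± 1.05. HYAL2 was at 55.9 ± 0.747 CPM in JQ1 and at 43.2 ± 0.704 in the Combination. HAS2 had 17 reads over the 3 JQ1 libraries and 8 over the 3 Combination libraries. Its interaction passed no longer without Combination replicate 1, JQ1 replicate 1 or JQ1 replicate 3 (adjusted p = 0.112, 0.141 and 0.058). That of HYAL2 passed no longer without CAR replicate 3 (adjusted p = 0.0545).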

How the results depend on the processing

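Over 19 alternatives, or 18 for the interaction, 970 of the recomputed log2 changes of the 9 genes kept their direction and their side of the threshold, 20 passed newly, 11 passed no longer and 15 turned direction. The counts here include CEMIP. Those of genes called in CAR, JQ1 and the Combination against DMSO, and in the Combination against CAR, stayed within 1.5 times. For the Combination against JQ1, 2 genes instead of 1 were called higher with only the 2 groups fitted, and 1 to 2 when a library was left out (2 without DMSO replicate 3 or Combination replicate 2). There 2 instead of 1 were called lower with DESeq2, 3 with only the 2 groups fitted, 4 with scaling to total counts, and 1 to 2 when a library was left out (2 without DMSO replicate 1 or 3). In the interaction 1 to 2 genes instead of 2 were called lower when a library was left out (1 without CAR replicate 3, Combination replicate 1, JQ1 replicate 1 or JQ1 replicate 3). The causes were not tested.

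Every change of direction concerned a gene with no call. With scaling to total counts the log2 change of CD44 became -0.0196 in CAR against DMSO, -0.0298 in the Combination against JQ1 and -0.0101 in the interaction, and that of HAS3 became -0.102 in the Combination against DMSO and -0.0219 against CAR. With 1 library left out, HAS3 in CAR against DMSO ranged from -0.116 to 0.139 (highest without CAR replicate 2, and 0.0713 without DMSO replicate 1), in the Combination against DMSO from -0.163 to 0.308 (lowest without Combination replicate 3), and in the Combination against CAR from -0.149 to 0.321 (lowest without Combination replicate 3, and -0.0345 without CAR replicate 2). HYAL1 in CAR against DMSO ranged from -0.382 to 0.193 (highest without DMSO replicate 3) and HMMR in the Combination against JQ1 from -0.352 to 0.0391 (highest without JQ1 replicate 1). CD44 in the interaction ranged from -0.0207 to 0.0352, and was below 0 without CAR replicate 2 (-0.0025), Combination replicate 2 (-0.0125) or DMSO replicate 2.

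Same-numbered libraries of different groups did not deviate together (18 correlations of -0.045 to 0.0564, and 3 of 12 libraries nearest to their own number), so the numbers were not taken as pairs. With the replicate block 4 genes were called higher and 4 lower in JQ1 against DMSO, as without it, and no call of the 9 genes changed. Without DMSO replicate 3, 1 gene was higher and 3 were lower in CAR against DMSO, and without Combination replicate 1 the interaction had 2 higher and 1 lower. HAS2 with JQ1, at 1 to 8 reads a library, and HYAL1 without it, at 7 to 17, are limited by depth.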
